A study of Homo sapiens with 12 samples.

Results

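Fc receptors bind the constant part of antibodies and carry that contact into the cell, and the Fc receptor-like (FCRL) proteins are their relatives on B cells. The account covers 8 genes of the 20046 named on the array: FCRL1, FCRL2, FCRL3, FCRL4, FCRL5, FCRLA, FCER2 and FCGR2B. They were taken as every probe annotated to one of these symbols, which gave 13 of 48105 probes. The set was chosen by name and in part on a measured value, the difference of FCRL4 between the CREM and the MS4A1 knockdown arrays, so the values of that comparison are given as a description with no test. FCRL4's difference from control on the same arrays is also given with no test.

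FCGR2B is the inhibitory IgG receptor of B cells, and the phosphatase INPP5D (SHIP) docks on its tail. FCRL1 has an activating tail, whereas FCRL2, FCRL3, FCRL4 and FCRL5 carry inhibitory motifs that recruit the phosphatases PTPN6 and PTPN11. FCRL4 marks a class of memory B cells in mucosal tissues and binds IgA, FCRL3 binds secretory IgA and FCRL5 binds IgG. FCRLA stays inside the cell, where it binds immunoglobulin in the endoplasmic reticulum. FCER2 (CD23) is the low-affinity IgE receptor, a lectin unrelated to the other members by sequence, which interleukin 4, CD40 and Epstein-Barr virus proteins induce on B cells. In the RefSeq gene order of GRCh38.p14, FCRL5, FCRL4, FCRL3, FCRL2 and FCRL1 are consecutive protein-coding genes on chromosome 1. FCGR2B and FCRLA are neighbours further along chromosome 1, and FCER2 is on chromosome 19.

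All 12 arrays measured total RNA of Raji, an Epstein-Barr virus-positive Burkitt lymphoma B cell line, and no array of uninfected cells was analysed here. Every culture received an shRNA, went through 48 h of puromycin selection and was harvested at day 3 after transduction. The arrays were divided into sets by whether their labels carry a replicate number. One set of 6 arrays, whose labels carry none, held 2 hairpins against CREM (shCREM A and B, a cyclic AMP-responsive transcription factor). It also held 3 hairpins against MS4A1, which encodes CD20 (shMS4A1 A, B and C), and 1 non-targeting control. That control is called shNTC replicate 3 here, a number its label does not give. The other set of 6 held 2 hairpins against MBD2 (shMBD2_A and shMBD2_C, a protein that binds methylated CpG), each on 2 arrays, and shNTC replicates 1 and 2. Nothing in the labels says that arrays of 1 construct came from separate cultures, so p-values measure the spread between arrays, which may be technical there. Each shCREM and each shMS4A1 array carried a different hairpin, so within these groups the spread also holds differences between hairpins. All groups share a common estimate of the spread, so it enters the shMBD2 p-values too.

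Levels are log2 intensities after background correction and quantile normalization (neqc), and the number of arrays limits their precision. A probe was called detected on an array at a detection p-value under 0.05. Median raw intensity lay between 99.2 and 104.9 in the first set and between 76.9 and 86.8 in the second, so each knockdown was set against the control of its own set. Of the targeted genes, MBD2 (ILMN_1750395) fell by 1.77 ± 0.24 (SE) under shMBD2 (limma adjusted p = 0.000892). MS4A1 fell by 1.93 ± 0.31 under shMS4A1 at ILMN_2401714 (limma adjusted p = 0.0123), while at ILMN_1776939 the difference of -1.17 ± 0.32 did not pass (limma adjusted p = 0.273). The CREM probe ILMN_1745318 was not detected on either shCREM array and its difference of -0.74 ± 0.30 did not pass (limma adjusted p = 0.57), so these arrays give only a weak check of the CREM label. Where a side has 1 array, as the set 1 control does, limma takes its spread to be that of the other groups. Among set 2 controls shNTC replicate 1 stood apart, with 5.81% to 6.38% of probes past 2-fold from the shMBD2 arrays, against 2.2% to 2.61% for replicate 2. It also had the fewest detected probes, 18652 against 19614 to 20483 on the other arrays, and the lowest median raw intensity, 76.9. Of 10 B cell markers with a probe, 8 were detected on all 12 arrays, among them CD79A, CD74 and EBF1, BLNK on 7 and PAX5 on 1. Of 9 T and NK cell markers 0 to 3 were detected per array, with CD3E, CD8A and CD4 on 0 arrays and CD2 on 8, and of 8 myeloid markers 1 to 4, with ITGAM, S100A9 and MPO on 0, CD14 on 10 and FCGR3A on 12. Of 6 fibroblast and epithelial markers 2 to 4 were detected per array, with KRT8 on 0, KRT18 on 3, and COL1A1 and VIM on 12. Within set 1 the summed level of the 10 B cell markers with a probe, on the linear scale, lay between 36969 and 38919, and within set 2 between 41743 and 44719. Over all arrays the sums lay between 189 and 256 for T and NK cell and between 212 and 268 for myeloid markers.

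Promoters are shown for FCRL3, the member called under MBD2 knockdown, for its neighbour FCRL4, whose difference chose the genes, and for FCER2, which was detected on a single array. Each is the 250 bases before a RefSeq start site (GRCh38.p14), read 5′ to 3′ on the gene's own strand. Capitals mark matches, on either strand, to letters of NF-kB (GGGNNNNNCC), RBPJ (TGGGAA) or the short form of a cyclic AMP response element (TGACG). NF-kB and RBPJ are known inducers of CD23, and CREM binds cyclic AMP response elements.
FCRL3, chr1:157700770-157701019, minus strand: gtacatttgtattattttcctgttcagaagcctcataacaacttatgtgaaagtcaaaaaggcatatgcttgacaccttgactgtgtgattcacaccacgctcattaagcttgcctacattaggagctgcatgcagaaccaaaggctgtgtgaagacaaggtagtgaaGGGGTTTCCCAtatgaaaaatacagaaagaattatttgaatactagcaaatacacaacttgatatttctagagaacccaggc
FCRL4, chr1:157598086-157598335, minus strand: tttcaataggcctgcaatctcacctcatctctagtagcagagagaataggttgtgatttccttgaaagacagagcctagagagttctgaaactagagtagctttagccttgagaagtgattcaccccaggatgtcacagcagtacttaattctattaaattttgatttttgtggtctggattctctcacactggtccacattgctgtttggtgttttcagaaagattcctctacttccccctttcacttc
FCER2 start site 1, chr19:7702132-7702381, minus strand: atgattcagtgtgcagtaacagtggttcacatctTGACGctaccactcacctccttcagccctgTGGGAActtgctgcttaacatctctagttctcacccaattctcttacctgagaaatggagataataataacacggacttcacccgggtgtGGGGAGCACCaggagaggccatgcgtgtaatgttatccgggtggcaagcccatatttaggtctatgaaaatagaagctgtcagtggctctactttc
In the FCRL3 window an NF-kB match starting at base -82 from the start site overlaps an RBPJ match starting at -77. The FCRL4 window holds no match, and no CpG. The window of FCER2 start site 2 is not printed, and holds 2 NF-kB matches, 1 RBPJ match and no short form. Over the 300-base windows (250 before to 50 after) of all members, 10 in number since FCER2 and FCGR2B have 2 start sites each, the full element TGACGTCA was found in 0, against 1.85% of 35116 promoters. The short form was found in 1 of 10, at FCER2 start site 1, against 24.6% of promoters. RBPJ letters were found in 5 of 10 windows against 24.0%, and NF-kB letters in 6 of 10 against 58.7%. The windows held 0 to 6 CpG dinucleotides, where the median promoter held 14. A match is a description of the letters and no evidence of binding.

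Of the 13 member probes, 11 probes of 6 genes passed the detection filter (2 or more arrays) and were tested. FCRL1 and FCER2 were each detected on 1 array and were not tested. Probes differ in their response, so levels are compared between arrays for 1 probe and not between genes.

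**Figure D1:**
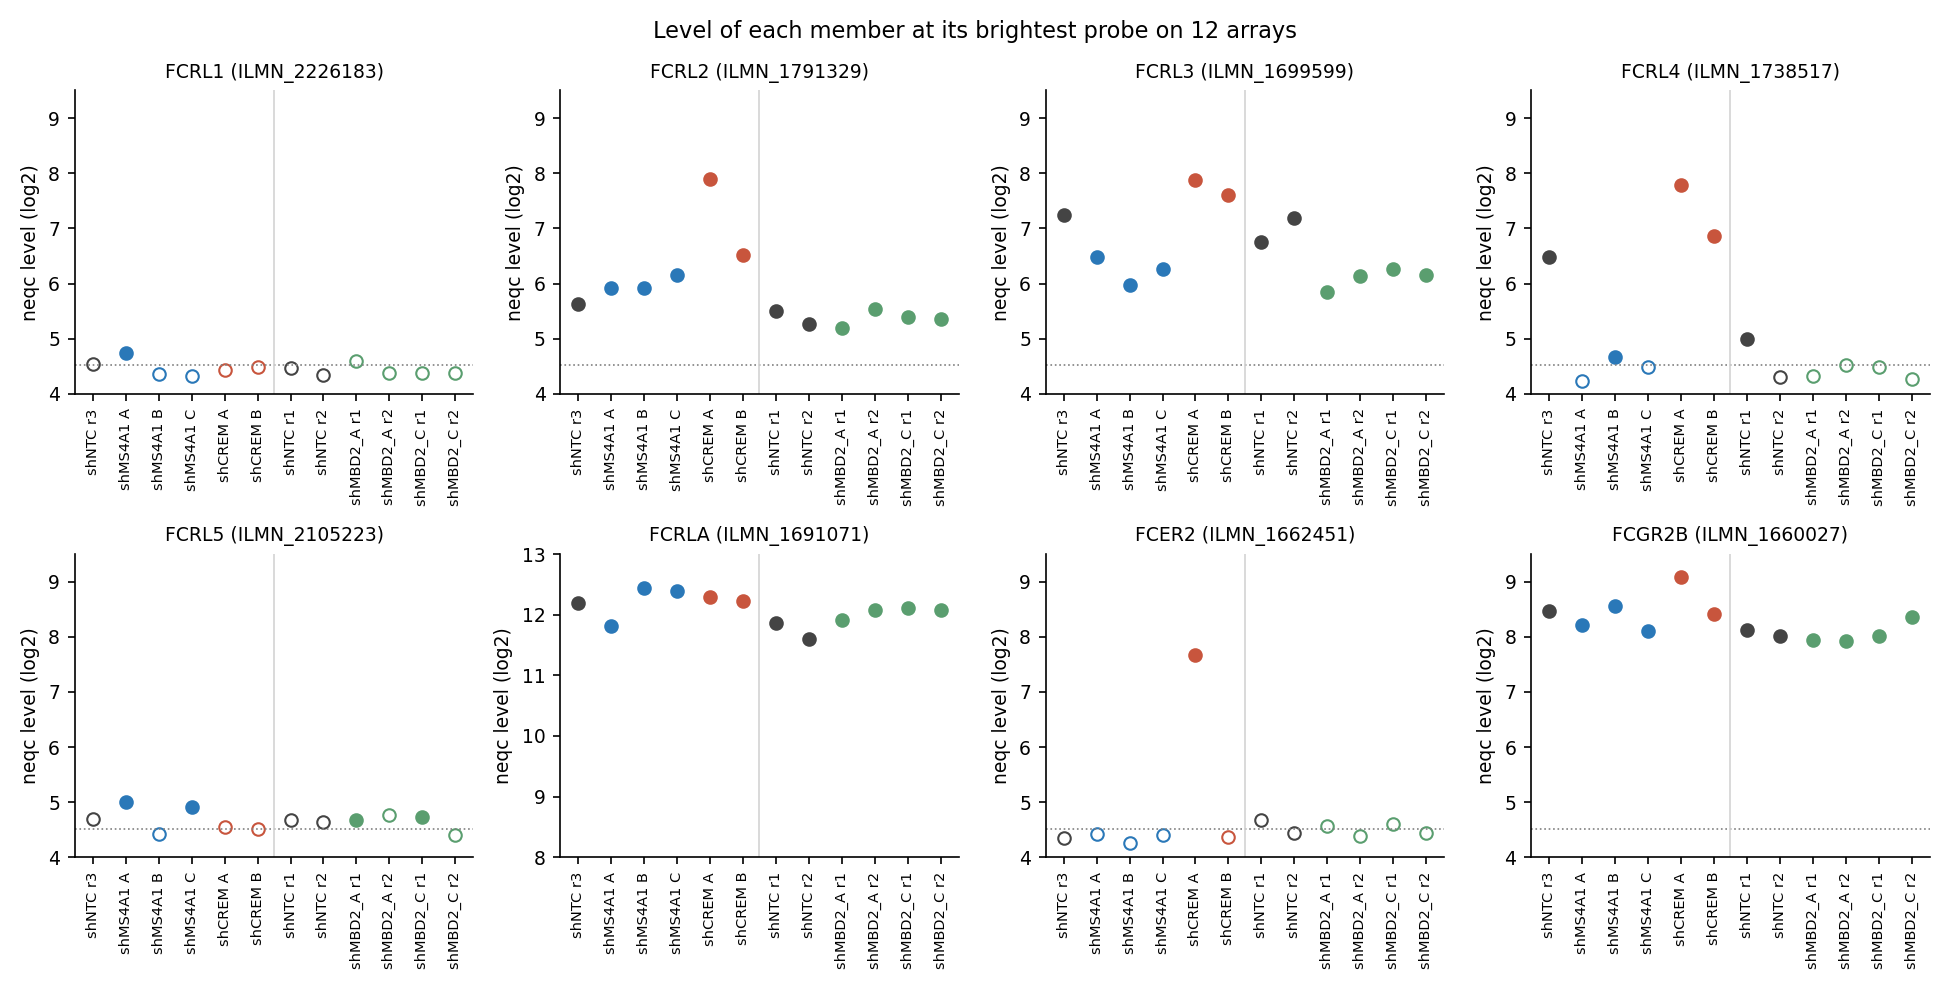
Level of each member at its brightest probe on the 12 arrays (y axis, neqc log2; the FCRLA axis covers a higher range), with set 1 left and set 2 right of the grey line. Filled points were detected and open points were not; the dotted line is the highest, over arrays, of the lowest level at which any probe was detected. FCRLA and FCGR2B are filled on every array, FCRL4 on 5 and FCER2 on 1.

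FCRL3, an inhibitory receptor of B cells with a secretory IgA ligand, was the member that passed the test in a comparison the choice of genes did not use. Under MBD2 knockdown its probe ILMN_1797428 read 5.66 and 5.88 with shMBD2_A and 6.02 and 5.84 with shMBD2_C, against 7.03 and 6.79 in the controls of that set. All 4 knockdown arrays lay below both controls. The level fell by 1.06 ± 0.23 on the log2 scale, or 2.08-fold (limma, two-sided, adjusted p = 0.0227, 4 against 2 arrays). In this comparison 2.09% of the 27789 probes tested were called, 1.11% as lower and 0.986% as higher, and FCRL3 was 1 of 11 member probes called. In these RNA pools a fall in RNA per cell and a fall in the share of cells that express the gene cannot be told apart. The summed level of the fibroblast and epithelial markers was also lower on the shMBD2 arrays, at 3218 to 3743 against 4562 and 4011 in the controls, and its part in the result was not tested. Of these markers VIM read highest, between 10.97 and 12.11 over the 12 arrays, and COL1A1 came next, between 5.01 and 7.07. The sum therefore mainly follows VIM.

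The second FCRL3 probe, ILMN_1699599, read 5.85 and 6.13 with shMBD2_A and 6.26 and 6.15 with shMBD2_C, against 6.76 and 7.18 in the controls. Its groups did not overlap either, and its difference of -0.87 ± 0.24 did not pass (limma adjusted p = 0.0706). The call at ILMN_1797428 was lost when shNTC replicate 1, the control that stood apart, was left out (difference -0.94, limma adjusted p = 0.239). It was also lost without any 1 of the 4 shMBD2 arrays (limma adjusted p from 0.0559 to 0.0913). On raw log2 values the difference was -0.56 and on the authors' processed values -0.53, both called (limma adjusted p = 0.012 and 0.0193). No difference between the hairpins passed: shMBD2_A minus shMBD2_C was -0.16 (95% interval -0.72 to 0.40) at ILMN_1797428 and -0.22 (-0.80 to 0.37) at ILMN_1699599.

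In set 1 the same probes separated the CREM from the MS4A1 arrays. ILMN_1797428 read 8.03 and 7.98 with the shCREM hairpins A and B, 6.38, 6.02 and 6.13 with the shMS4A1 hairpins A, B and C, and 6.74 in the control. ILMN_1699599 read 7.88 and 7.61 with shCREM, 6.49, 5.97 and 6.26 with shMS4A1, and 7.24 in the control. At both probes shCREM was highest, the control in the middle and shMS4A1 lowest, with no overlap. The shCREM arrays exceeded the shMS4A1 arrays by 1.82 and 1.51, a description because this comparison chose the genes. Against the single control of the set, neither side passed the test. The shMS4A1 differences were -0.56 ± 0.31 and -1.0 ± 0.32 (limma adjusted p = 0.968 and 0.474), where 0.13% of all probes were called, 0.119% as lower and 0.0108% as higher. The shCREM differences were 1.26 ± 0.33 and 0.51 ± 0.34 (limma adjusted p = 0.28 and 0.829), where 0.0108% of all probes were called, all of them as lower. The comparisons of shMS4A1 and shCREM share that control array, so a high or low control moves both.

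**Figure D2:**
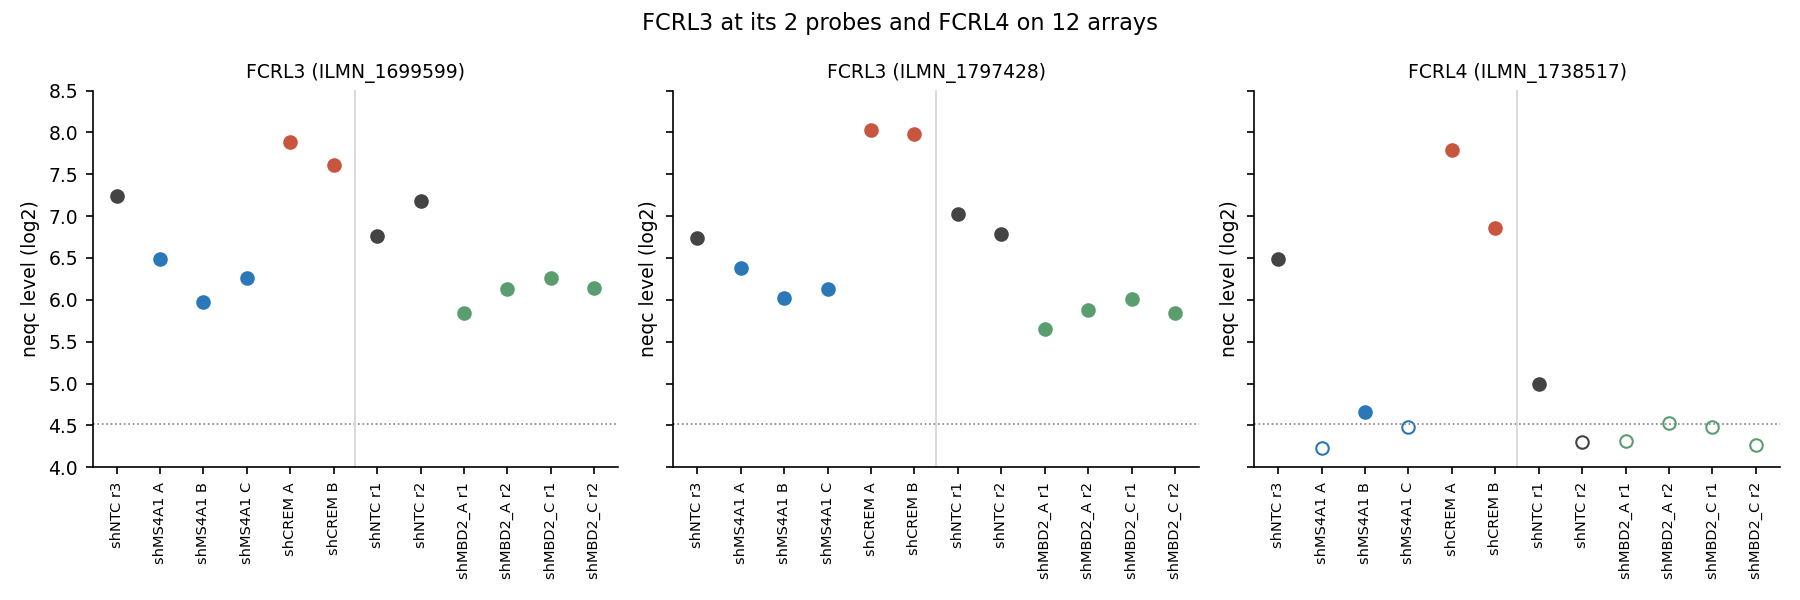
FCRL3 at both of its probes and FCRL4 at its probe on the 12 arrays (y axis, neqc log2), set 1 left and set 2 right of the grey line; filled points were detected, and the dotted line is the detection level of the plot of all members. In set 1 the shCREM arrays are highest for all 3 probes; in set 2 the 4 shMBD2 arrays lie below both controls at the FCRL3 probes and near the dotted line at FCRL4.

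FCRL4, the IgA-binding receptor of tissue memory B cells, was measured by 1 probe, ILMN_1738517. It read 7.79 and 6.86 with the shCREM hairpins A and B, 4.23, 4.66 and 4.48 with the shMS4A1 hairpins A, B and C, and 6.48 in the set 1 control. In set 2 it read 4.32 and 4.53 with shMBD2_A, 4.48 and 4.27 with shMBD2_C, and 4.99 and 4.30 in the controls. The gene was plainly detected on 3 arrays, both shCREM arrays and shNTC replicate 3. It just passed the detection limit on 2 more, shMS4A1 B and shNTC replicate 1, and was not detected on 7.

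The shCREM arrays exceeded the shMS4A1 arrays by 2.87, which is the difference that chose the gene. The probe was detected on both shCREM arrays and on 1 of 3 shMS4A1 arrays, so the shMS4A1 level lies near background. Against the control of the set the shMS4A1 arrays were lower by 2.02 ± 0.39 (SE) and the shCREM arrays higher by 0.84 ± 0.41, both given without a test. The control level itself depended on the set: shNTC replicate 3 exceeded the mean of the set 2 controls by 1.84, whereas the corresponding gaps at the FCRL3 probes were 0.27 and -0.17. With the array set left out of the model, which averages all 3 controls, the shMS4A1 difference was -0.80 and the shCREM difference 2.06. With the set kept, the shMS4A1 difference was -0.89 on raw log2 values, -0.94 on the authors' processed values and -1.14 at a neqc offset of 50. The difference between shCREM and shMS4A1 was 1.43, 1.47 and 1.80 under the same 3 settings, and 2.40 without shCREM A and 3.33 without shCREM B. The 3 shMS4A1 arrays lay within the range of the 2 set 2 controls or below it, and above no set 1 array of another group. Under MBD2 knockdown FCRL4 did not pass the test, at -0.25 (95% interval -0.86 to 0.36, limma adjusted p = 0.762). FCRL4 was detected on 0 of 4 shMBD2 arrays and 1 of 2 controls, and without that control, shNTC replicate 1, the difference was 0.0963, so no direction was measurable there.

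FCRL2, which carries activating and inhibitory motifs, was measured by 2 probes that did not follow each other (r = 0.146 over 12 arrays after removal of the set means). ILMN_1791329 was detected on every array and read 7.89 with shCREM A and 6.51 with shCREM B, 5.92, 5.93 and 6.15 with shMS4A1, and 5.63 in the control. In set 2 it read 5.19 and 5.53 with shMBD2_A, 5.39 and 5.36 with shMBD2_C, and 5.51 and 5.27 in the controls. Both shCREM arrays were the highest of the 12, and shCREM A was 2.61-fold above shCREM B. Against the control the shCREM difference of 1.57 ± 0.45 did not pass (limma adjusted p = 0.346), and under shMBD2 the difference was -0.02 (95% interval -0.69 to 0.65). With 1 shCREM array against the 1 control, the difference was 0.88 for hairpin B alone (limma adjusted p = 0.576) and 2.26 for hairpin A alone (limma adjusted p = 0.0158), with the spread of a lone array assumed to be that of the other groups.

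The other FCRL2 probe, ILMN_1665152, was dimmer. It read 5.10 and 4.65 with shCREM, 4.65, 4.71 and 4.34 with shMS4A1 and 5.38 in the set 1 control, and was detected with shCREM A, shMS4A1 A and that control. It read 4.36, 4.54, 4.32 and 4.45 on the shMBD2 arrays, with none detected, and 5.45 and 4.81 in the set 2 controls, both detected. In both sets the controls were highest. The probe was at least 1.54-fold lower under shMBD2, with a fitted difference of -0.71 ± 0.23 that did not pass (limma adjusted p = 0.118), and at -0.81 ± 0.31 under shMS4A1 it did not pass either (limma adjusted p = 0.667). The shMBD2 difference was -0.39 without shNTC replicate 1 (limma adjusted p = 0.727) and -1.03 without replicate 2, where it passed (limma adjusted p = 0.0365). The 2 probes therefore gave opposite signs under shCREM, 1.57 and -0.50, and the direction for FCRL2 is unsettled.

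FCRL1, the member with an activating tail, was detected with shMS4A1 A alone, at 4.74, where it just passed the detection limit. The other 11 arrays lay between 4.32 and 4.6, all not detected. FCRL5, an inhibitory IgG receptor of the family, stayed near background at both probes. ILMN_1684445 ranged from 4.29 to 4.94 and was detected with shNTC replicate 3 and shMBD2_C replicate 1, and ILMN_2105223 ranged from 4.41 to 5.0 and was detected on 4 arrays. No FCRL5 difference passed the test. The one furthest from 0 was at ILMN_1684445 under shMS4A1, at -0.54 ± 0.23 (95% interval -1.02 to -0.06, limma adjusted p = 0.77). The mean level on those arrays was at least 1.36-fold below the control array. In shMBD2 minus shNTC the FCRL5 probes gave -0.03 (95% interval -0.40 to 0.33) and -0.02 (-0.46 to 0.42).

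FCRLA, the intracellular member, was detected on all 12 arrays and varied little. In set 1 it read 12.29 and 12.23 with shCREM, 11.82, 12.44 and 12.39 with shMS4A1 and 12.19 in the control. In set 2 it read 11.91 and 12.08 with shMBD2_A, 12.12 and 12.07 with shMBD2_C, and 11.86 and 11.59 in the controls. The shMBD2 arrays lay above both controls by a difference that did not pass (0.32, 95% interval 0.01 to 0.63, limma adjusted p = 0.322). Against the set 1 control the differences were 0.03 under shMS4A1 (95% interval -0.39 to 0.45) and 0.07 under shCREM (-0.37 to 0.52).

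FCGR2B, the classical IgG receptor of B cells, was detected on all 12 arrays at ILMN_1660027 and ILMN_1804174 and on 11 at ILMN_2382403. FCGR2C is a near-identical copy, so the signal of these probes may hold both genes and the values are uncertain in that respect. ILMN_1660027 read 9.09 and 8.41 with shCREM, 8.21, 8.56 and 8.11 with shMS4A1 and 8.47 in the set 1 control, and lay between 7.92 and 8.36 in set 2. ILMN_1804174 read 7.71 and 7.64 with shCREM, 6.75, 7.55 and 7.07 with shMS4A1 and 6.78 in the control, and lay between 5.36 and 6.09 in set 2. ILMN_2382403 read 7.27 and 7.13 with shCREM, 6.30, 6.67 and 6.65 with shMS4A1 and 6.59 in the control. At the last 2 probes both shCREM arrays were above every other array of the study.

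None of the FCGR2B differences from control passed the test. Under shCREM they were 0.28 ± 0.29, 0.89 ± 0.37 and 0.61 ± 0.38 in the order of the probes above (limma adjusted p = 0.928, 0.584 and 0.807). Under shMS4A1 they were -0.18 ± 0.27, 0.35 ± 0.35 and -0.05 ± 0.36, each with a limma adjusted p of 0.999. Under MBD2 knockdown ILMN_2382403 read 6.10 and 6.21 with shMBD2_A and 6.09 and 6.24 with shMBD2_C, against 4.8 and 5.71 in the controls. Its difference of 0.90 ± 0.27 did not pass (limma adjusted p = 0.0927) and turned on the controls. It was 1.36 and passed without shNTC replicate 2 (limma adjusted p = 0.0137), and 0.45 without shNTC replicate 1, on which the probe was not detected. The other 2 probes gave -0.00258 (95% interval -0.44 to 0.43) and 0.16 (-0.38 to 0.70), and differences between the probes of the gene were not tested. The set 1 control exceeded the mean of the set 2 controls by 0.40, 1.25 and 1.34 at the 3 probes.

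**Figure D3:**
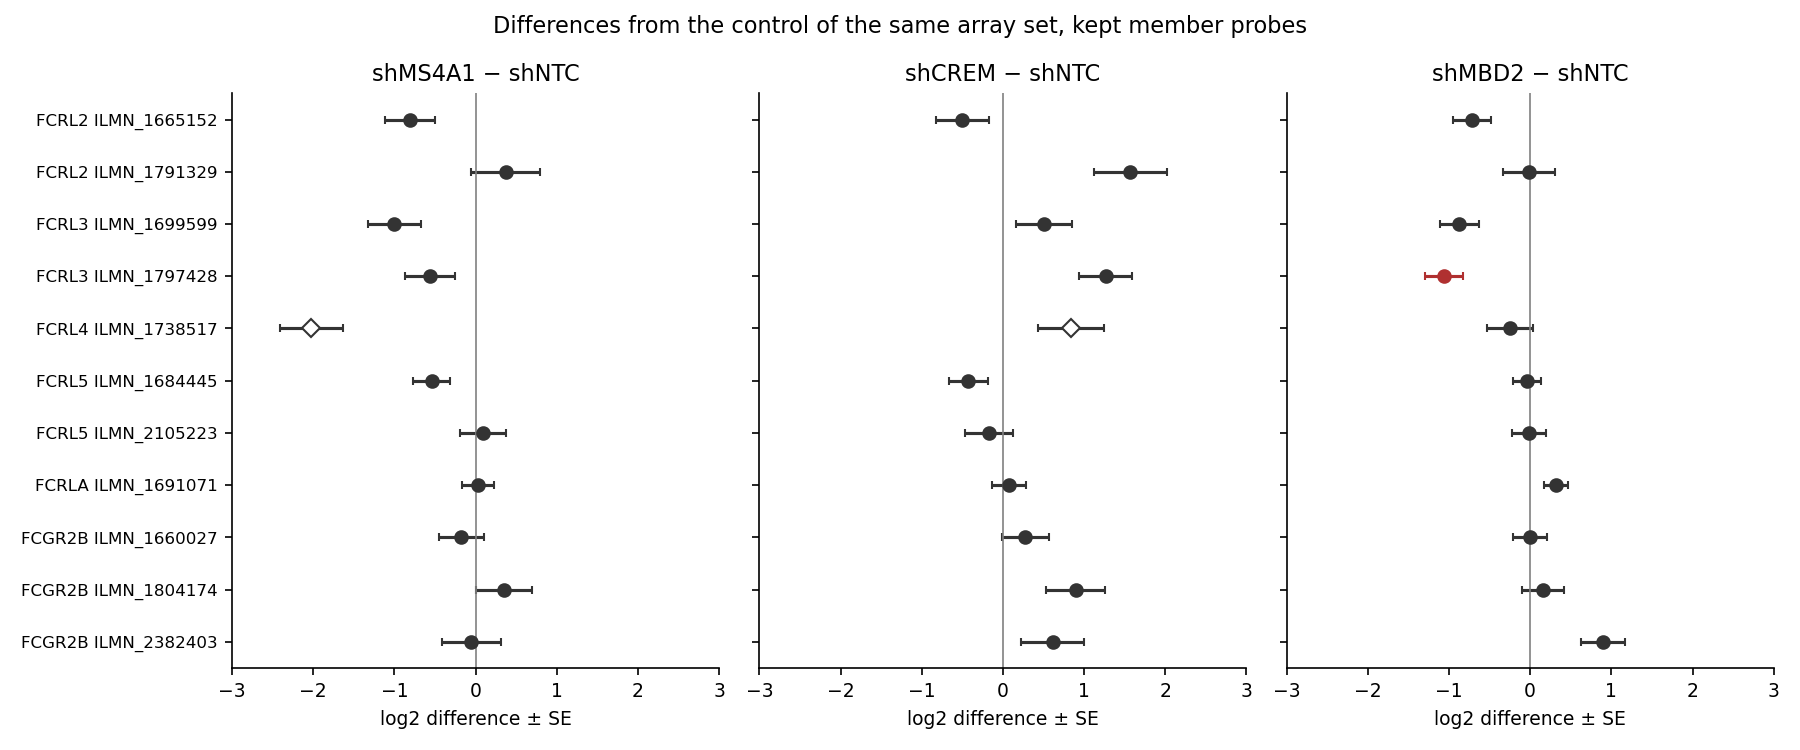
Difference from the control of the same set for the 11 tested member probes (x axis, log2 difference; bars are standard errors from limma), for shMS4A1, shCREM and shMBD2. The red point, FCRL3 ILMN_1797428 under shMBD2 at -1.06, is the member that passed the test; open diamonds mark FCRL4 on the arrays that chose it, which were not tested.

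Counted over the 11 tested probes, shMS4A1 arrays were all below the control at 5 and all above it at 1, where 26.3% and 26.4% of all probes were so. The shCREM arrays were all above it at 7 and all below it at 3, where 33.5% and 32.6% of all probes were so. The shCREM arrays were all above the shMS4A1 arrays at 7 and all below them at 0, where 16.5% and 15.8% of all probes were so. The shMBD2 arrays were all above both controls at 2 and all below both at 3, where 13.5% and 12% of all probes were so. With a single control array a lack of overlap is common, and FCRL4's probe was in part what chose the genes, so these counts describe the probes and are not a test. At an unadjusted limma p under 0.05 stood 3 of 10 member probes with a test under shMS4A1 and 3 of 10 under shCREM, where 5.8% and 7.43% of all probes did, and 5 of 11 under shMBD2, where 14.8% did. Probes of 1 gene share their target, so they do not count as separate genes. Between the MBD2 hairpins 0 of 27789 probes were called by limma, or 0%, and 2.62% had an unadjusted p under 0.05, with 0 of 11 member probes among them. The member differences between those hairpins ranged from -0.53 at FCGR2B ILMN_1804174 to 0.15 at FCRL5 ILMN_2105223.

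FCER2, the CD23 IgE receptor, was read by 1 probe, ILMN_1662451, and was detected on the shCREM A array alone. It read 7.66 there and 4.36 with shCREM B, 4.42, 4.26 and 4.41 with shMS4A1 and 4.36 in the set 1 control. In set 2 it read 4.57 and 4.39 with shMBD2_A, 4.61 and 4.44 with shMBD2_C and 4.67 and 4.44 in the controls. The raw intensity was 327 with shCREM A and 74.4 to 96.6 on the other 11 arrays. The level was at least 9.15-fold higher with hairpin A than with hairpin B, and there is 1 array of each, so the difference has no replicate check. The excess of shCREM A over the highest other array was at least 2.99 on the log2 scale, a lower bound because no other array detected the probe.

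The same excess was ranked over the 19190 probes that shCREM A and the highest other array both detected. FCRL2 ILMN_1791329 ranked 8 with 1.38, FCRL4 ranked 41 with 0.94 and FCGR2B ILMN_1660027 ranked 294 with 0.52, while the FCRL3 probes gave 0.27 and 0.06. The first 3 in this order, named after their values were seen, were SUFU (2.29), CLBA1 (1.82) and NCALD (1.69). Over all tested probes 1.9% were past 2-fold higher with shCREM A than with shCREM B and 2.23% the other way. Hairpin A read higher than hairpin B at the 9 tested member probes detected on either array, where 50.5% of probes so detected did, with A minus B from 0.0551 at FCRL3 ILMN_1797428 to 1.38 at FCRL2. The summed level of the 5 plasma cell markers was 3144 with shCREM A and 4765 with shCREM B, and lay between 3784 and 4995 on the other arrays. Of these markers XBP1 read between 10.26 and 11.48 and MZB1 between 9.95 and 11.53 over the 12 arrays. PRDM1 came next with at most 7.33, so the sum mainly follows XBP1 and MZB1. The part of this sum in the FCER2 and FCRL2 values was not tested.

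**Figure D4:**
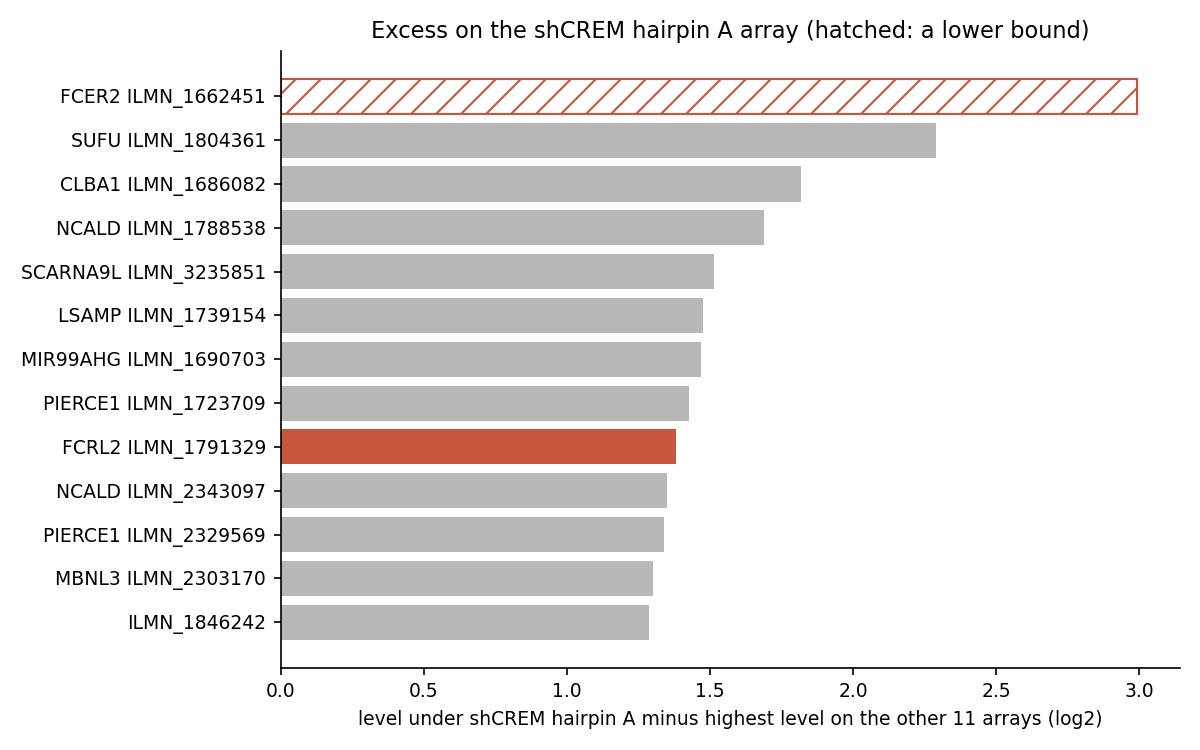
Level with shCREM A minus the highest level on the other 11 arrays (x axis, log2 difference; bars start at 0) for FCER2 and for the 12 probes with the largest such excess among those detected on both sides. The hatched FCER2 bar, 2.99, is a lower bound and unranked; FCRL2, the other red bar, is the eighth ranked with 1.38, and other probes are grey.

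The genes that act with these receptors were read from lists, each gene at its brightest probe that passed the detection filter. The shares and medians over all probes beside them cover all 27789 tested probes, dim ones included, of which 18649 have 1 symbol. The sets compared are therefore not alike. Of 17 other Fc receptors and relatives, 8 were tested and none passed limma's adjusted threshold against control in any knockdown, with 0, 1 and 1 at an unadjusted p under 0.05 under shMS4A1, shCREM and shMBD2, where 5.8%, 7.43% and 14.8% of all probes were. Their median differences were -0.09 under shMS4A1, -0.04 under shCREM and 0.05 under shMBD2, beside medians of 0.02 over all probes in each. FCGR2A, an activating IgG receptor, gave -0.33 ± 0.33 under shMS4A1 and -0.81 ± 0.35 under shCREM (limma adjusted p = 0.999 and 0.606), and FCGRT, the neonatal Fc receptor that recycles IgG, gave 0.51 ± 0.22 under shMBD2 (limma adjusted p = 0.279). Of 28 phosphatases, kinases and adaptors used by the receptor tails, 24 were tested and none passed limma's threshold against control in any knockdown, with 5, 3 and 7 at an unadjusted p under 0.05 in the same order, beside the same 5.8%, 7.43% and 14.8% of all probes. LYN, the kinase that phosphorylates the inhibitory motifs, gave -1.01 ± 0.28 under shMS4A1 (limma adjusted p = 0.332), CSK gave -0.66 ± 0.23 under shCREM (0.471) and CBL gave -0.63 ± 0.20 under shMBD2 (0.106). The list medians were -0.11, -0.00802 and -0.16 in those comparisons.

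Of 20 other inhibitory receptors and co-receptors of B cells, 15 were tested. Under shMBD2 1 fell, CD79A, the signalling chain of the B cell receptor, by 0.87 ± 0.13 (limma adjusted p = 0.00149), and none rose, where 1.11% of all probes were called as lower and 0.986% as higher. Under shMS4A1 and shCREM none passed in limma, with 2 and 3 at an unadjusted p under 0.05 beside 5.8% and 7.43% of all probes, and the list medians were -0.17, 0.13 and -0.31 under shMS4A1, shCREM and shMBD2. CR2, the complement receptor that also binds CD23, gave -0.88 ± 0.31 and -0.86 ± 0.33 (limma adjusted p = 0.585 and 0.536) against the same control array. Of 23 partners, sheddases and inducers of CD23, 18 were tested. Under shMBD2 1 fell, HES1, a Notch target, by 1.19 ± 0.27 (limma adjusted p = 0.0257), beside the same 1.11% of all probes. The shMBD2 calls of CD79A, HES1 and, below, IGLL1 were not followed through other settings or left-out arrays, as the FCRL3 call was. The number of probes called under shMBD2 was 582, but 76 with no set block and 707 with detection on at least 6 arrays. None passed in limma under shMS4A1 or shCREM, with 4 at an unadjusted p under 0.05 in each, beside 5.8% and 7.43% of all probes. The list medians were -0.29, -0.09 and -0.08. NFKB2, an NF-kB subunit, gave -1.12 ± 0.23 under shMS4A1 (limma adjusted p = 0.0823), and CR2, on this list too, had the smallest p under shCREM.

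Of 18 genes known from FCRL4-bearing memory B cells, 14 were tested and none passed in limma against control, with 5, 3 and 2 at an unadjusted p under 0.05, beside 5.8%, 7.43% and 14.8% of all probes, and medians of -0.21, 0.11 and -0.04. CD24, a surface glycoprotein detected on the control and on no shMS4A1 array, was at least 1.75-fold lower there, with a fitted difference of -1.02 ± 0.25 that did not pass (limma adjusted p = 0.165). CD86, a costimulatory ligand, gave 0.86 ± 0.30 under shCREM (limma adjusted p = 0.475), and CD27, a memory marker, gave -0.37 ± 0.12 under shMBD2 (0.134). Of 12 immunoglobulin genes 2 were tested. IGLL1, a surrogate light chain, rose by 0.70 ± 0.17 under shMBD2 (limma adjusted p = 0.0375), where 0.986% of all probes were called as higher, and gave 0.60 ± 0.23 under shMS4A1 and 0.29 ± 0.24 under shCREM (0.676 and 0.887). JCHAIN, which joins IgA and IgM multimers, gave 0.59 ± 0.18 under shMBD2 (limma adjusted p = 0.0889). Between shCREM and shMS4A1, the comparison that chose FCRL4 and in which 4.09% of all probes were called, 1.88% as higher and 2.21% as lower, 8 list genes lay past the same threshold, 7 higher and 1 lower with shCREM, given as a description. The shCREM arrays were higher by 1.66 at CD86, 1.46 at CD72, 1.07 at CD22, 0.87 at LYN, 0.77 at ADAM17, 0.75 at CD40 and 0.73 at CBLB, and lower by a difference of -0.40 at CD81, a co-receptor. CD72 and CD22 are inhibitory receptors whose tails also recruit PTPN6.

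The genes whose levels most resembled each member over the 12 arrays, after removal of the set means, were taken from 13701 other genes as a description. FCRL3 (ILMN_1699599) was most like EBF1, a B cell identity factor (r = 0.973), ZBTB20 (0.969) and SLAMF1 (0.965). FCRL4 was most like ABHD16A (0.967), SNX19 (0.952) and SLC12A8 (0.951). FCRL2 (ILMN_1791329) was most like NLRP10 (0.957), CLBA1 (0.945) and ENTPD1 (0.929), and CLBA1 is also second in the order of excess on the shCREM A array. FCRLA was most like SESN1 (0.964), PPP3CB (0.935) and GLRX5 (0.92). FCGR2B (ILMN_1660027) was most like LINC02289 (0.918), LINC02981 (0.916) and CYB561A3 (0.904). FCRL5 (ILMN_2105223), near background, had the lowest values, with ICE2 (0.893), ARHGAP11B (0.86) and KDM7A-DT (0.831). Among the members themselves FCRL3 and FCRL4 had the highest value (r = 0.817), followed by FCRL2 with FCGR2B (0.696) and FCRL2 with FCRL4 (0.688). The 2 FCRL3 probes gave 0.939, the FCGR2B probes 0.34 to 0.683, and the FCRL5 probes -0.0924. All these values rest on the same 12 arrays, in which the shCREM and shMS4A1 arrays lie far apart. Those with FCRL4 include the arrays that chose it, and it was not detected on 7 of the 12. FCRL2 ILMN_1791329 read 7.89 on the shCREM A array and at most 6.51 on any other, so its values lean on that array. CLBA1 read 7.76 there and at most 5.94 elsewhere, so its likeness to FCRL2 and its excess are not separate observations.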

How the data were processed

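The authors deposited a table of raw bead intensity on a linear scale with a detection p-value for every probe and array, per the file headers, and a table of processed intensity; which software read the images was not given in the sources used here. These tables name probes differently and were joined by their value profiles over 12 arrays. All 48105 complete probes matched uniquely. The annotation, which is dated, gave 1 symbol to 30113 probes, several to 8 and none to 17984.

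Raw intensities were normalized with neqc in limma 3.58.1 (R 4.3.3), offset 16. Probes detected at p under 0.05 on at least 2 arrays were kept (27789). limma's linear model with empirical Bayes and an intensity trend was fitted to all 12 arrays with array set as a block (6 residual degrees of freedom), two-sided, with Benjamini-Hochberg adjustment over 27789 probes and a threshold of 0.05. It was also run on simulated data in which each probe had the same spread on every array and hairpins did not differ. That run cannot check the spread assumed for the lone control. An error after ± is a standard error from limma. A probe not detected on 1 side has a fold written "at least", against the lowest detected level or its own. Such a fold allows for the detection limit alone and not for the spread between arrays.

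The members and lists were chosen with earlier results of these data known. Named are every member probe, the targeted genes, the 3 genes most like each member, and per list and comparison up to 4 genes past the threshold or, where none passed, the smallest p-value (the rule allowed 2). IGLL1 and JCHAIN are the whole tested immunoglobulin list. Alternatives were the block, own-set arrays, raw or processed values, offset, filter, trend, 1 probe per gene, and left-out arrays. Promoters came from RefSeq (GRCh38.p14), for all 8 members.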

Additional observations from a re-analysis of the deposited data

Results flagged for a closer look

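FCER2 ILMN_1662451 read 7.66 on the shCREM A array, the 1 array on which it was detected, while the 3 control arrays were not detected. It is listed here because the probe failed the filter and entered no test. FCRL1 ILMN_2226183 likewise entered no test and read 4.74 on the shMS4A1 A array, the 1 array on which it was detected.

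Both MBD2 hairpins moved opposite ways from the control mean at 2 member probes. At FCGR2B ILMN_1804174 both shMBD2_A arrays lay below it and both shMBD2_C arrays above it, with a difference between hairpins of -0.53 (limma adjusted p = 1). At FCRL5 ILMN_1684445 the same pattern gave -0.16 (limma adjusted p = 1). Neither difference passed the test.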

How the results depend on the processing

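Of 828 recomputed member values in tested comparisons, 782 kept their sign and side of the threshold, 7 lost a call, 8 gained one and 31 turned sign, with 0 of those called either way. The lost calls were all of FCRL3 ILMN_1797428 under shMBD2, called in 13 of 20 alternatives (limma adjusted p 0.012 to 0.239, difference -1.18 to -0.53). It lost the call with no set block (0.0598), in its own set alone (0.0653) and in 5 fits that left out 1 array. FCRL3 ILMN_1699599 gained one on raw log2 values (0.0476) and with detection on at least 6 arrays (0.0449). With no set block FCRL2 ILMN_1791329 (0.0233), FCRL3 ILMN_1797428 (0.0369) and FCGR2B ILMN_1804174 (0.0282) passed under shCREM; the cause was not tested. The other 3 gains came with 1 array left out, FCRL2 ILMN_1791329 without shCREM B (0.0158), and FCRL2 ILMN_1665152 (0.0365) and FCGR2B ILMN_2382403 (0.0137) without shNTC replicate 2.

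Differences that turned sign were, with no set block, FCGR2B ILMN_1660027 at 0.0926 and ILMN_2382403 at 0.84 under shMS4A1 and ILMN_1804174 at -0.25 under shMBD2. On raw log2 values FCRL5 ILMN_1684445 was 0.00236 under shMBD2. On the authors' processed values FCGR2B ILMN_1660027 was 0.000403 under shMBD2, and FCRL2 ILMN_1791329 and FCGR2B ILMN_2382403 were 0.00885 and 0.00401 between the MBD2 hairpins.

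With 1 array left out, uncalled differences that turned sign ranged under shMS4A1 from -0.0229 to 0.27 at FCRL5 ILMN_2105223, -0.0823 to 0.23 at FCRLA ILMN_1691071 and -0.12 to 0.0695 at FCGR2B ILMN_2382403. They ranged under shCREM from -0.0616 to 0.62 at FCGR2B ILMN_1660027. They ranged under shMBD2 from -0.14 to 0.10 at FCRL2 ILMN_1791329, -0.59 to 0.0963 at FCRL4 ILMN_1738517, -0.21 to 0.14 at FCRL5 ILMN_1684445, -0.0974 to 0.0629 at FCRL5 ILMN_2105223, -0.0871 to 0.0819 at FCGR2B ILMN_1660027 and -0.0107 to 0.33 at FCGR2B ILMN_1804174. They ranged between the MBD2 hairpins from -0.0179 to 0.16 at FCRL2 ILMN_1665152, -0.18 to 0.16 at FCRL2 ILMN_1791329, -0.0605 to 0.15 at FCRL4 ILMN_1738517, -0.00896 to 0.31 at FCRL5 ILMN_2105223 and -0.086 to 0.0651 at FCGR2B ILMN_2382403.

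Probes called under shMS4A1 (36) numbered 298 with no set block, 6 in the set alone, 155 with no filter and 16 with no trend. Under shCREM (3) they numbered 363, 1 and 72 with the first 3 of these, 6 on raw and 6 on processed values, 10 with offset 50, 1 with detection on 6 arrays and 1 with 1 probe per gene. Under shMBD2 (582) they numbered 76 with no set block, 376 with no filter and 293 with no trend. Between shCREM and shMS4A1 (1136) they numbered 448, 499 in the set alone and 602 with no trend. Leaving out 1 array, counts ranged from 10 to 58 under shMS4A1, 2 to 176 under shCREM, 62 (without shNTC replicate 1) to 1593 (without shNTC replicate 2) under shMBD2 and 545 to 1402 between shCREM and shMS4A1. Leaving out arrays outside a comparison was chosen after seeing the data. Without shNTC replicate 3 the set 1 comparisons with control could not be fitted.

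Replicate numbers in set 2 showed no shared effect: deviations of same-numbered arrays correlated at -0.0629, -0.00647 and -0.0274. These values cannot tell whether same-numbered arrays were handled as pairs. With the replicate block 460 probes were called under shMBD2, 453 of them shared with the 582, FCRL3 ILMN_1797428 kept its call (limma adjusted p = 0.0344), and 0 were called between the hairpins.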
